A study of Mus musculus with 6 samples.

Results

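The genes described here run the methionine cycle and transsulfuration, and were followed in mouse CD8+ T cells cultured with or without aminooxyacetic acid (AOA), an inhibitor of enzymes that use vitamin B6. The set was listed by gene symbol and names 9 genes: Cbs, Cth, Mat2a, Mat2b, Ahcy, Ahcyl1, Mtr, Mtrr and Mtap. Of these, 7 had a row among the 11922 genes of the count table, and all 7 passed the filter on low counts. Cbs and Cth, the transsulfuration enzymes, are not analysed here, so the values below concern the methionine cycle and methionine salvage.

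CD8+ T cells were taken from spleens of C57BL6/J mice with magnetic beads and activated with anti-CD3/anti-CD28 Dynabeads and IL-2 at 100 units/ml for 72 hours. They were then expanded in IL-2 for 4 more days and lysed on day 7. The vehicle group received water and the AOA group 0.25 mM AOA through the whole culture, so activation and IL-2 were common to both. Cells of the same 3 mice gave 3 libraries in each group. The labels give no age for these 3 mice and name no transgene or deletion, and the cells are bulk cultures enriched by beads rather than single clones.

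Methionine is joined to ATP by methionine adenosyltransferase to give S-adenosylmethionine (SAM), the methyl donor for DNA, RNA, histones and many small molecules. Methyl transfer leaves S-adenosylhomocysteine, which is split to homocysteine and adenosine. Homocysteine is either methylated back to methionine with folate and vitamin B12, or passed by transsulfuration to cysteine and on to glutathione. Cystathionine beta-synthase (Cbs) and cystathionine gamma-lyase (Cth) use pyridoxal phosphate, the active form of vitamin B6, whereas the 7 enzymes and subunits measured here do not. T cells raise methionine uptake and SAM production when they are activated.

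Mat2a mRNA carries its own SAM-linked control element. In mammals, METTL16, itself a SAM-dependent methyltransferase, binds hairpins in the 3′ UTR of this mRNA, and this interaction ties MAT2A expression to SAM supply. The letters TACAGANAA, the METTL16-type nonamer, were searched on the sense strand of GENCODE vM21 transcripts, a search added after the counts had been seen. Mat2a held 6 of these sites, all in exon 9 of 9 and in the 3′ UTR of a transcript of 2804 bases. They are shown because Mat2a was one of the genes with the largest change in the set, with the nonamer in capitals, on the minus strand of GRCm38.
Mat2a site 1, chr6:72434236-72434261: gcgtaggtTACAGAGAAgccttcaag
Mat2a site 2, chr6:72433452-72433477: ttgtgataTACAGAGAAgtcacaggg
Mat2a site 3, chr6:72433273-72433298: ggtgtagcTACAGAGAAaccagcttc
Mat2a site 4, chr6:72433158-72433183: ggcgtaagTACAGAGAAgccatcacc
Mat2a site 5, chr6:72433047-72433072: aggtgtccTACAGAAAAaccttgggt
Mat2a site 6, chr6:72432939-72432964: tggtgtggTACAGAGAAgccagcttg
Site 5 reads TACAGAAAA in the nonamer and the other 5 sites read TACAGAGAA. Of 21877 protein-coding genes, 2364 (10.8%) held at least 1 such site and only 1, Mat2a, held as many as 6. None of the other 6 genes of the set held one. The match of letters is a description of the transcript, and methylation or binding was not measured.

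Total counts per library were 12881962 to 18934869 with vehicle and 18696114 to 21997078 with AOA. Vehicle replicate 2 and AOA replicate 1 stood apart from the other libraries of their groups, with a chi-square per gene of 55.9 to 72.3 in the pairs that held one of them and of 10.2 and 10.7 in the other pairs, and several values below are also given without them. The culture differed widely between the groups: 6233 of 11759 tested genes (53.0%) passed the threshold, an adjusted p under 0.05 in edgeR's quasi-likelihood test. The summed level of 10 S phase markers was 473 to 621 CPM (counts scaled to the size of each library) with vehicle and 2679 to 2774 CPM with AOA, and that of 10 G2/M markers 733 to 979 and 4126 to 5115 CPM, with every gene of both lists called higher. All 6 CD8 T cell markers were expressed in every library, with Cd8a at 654 to 914 CPM with vehicle and 1455 to 1700 CPM with AOA. Cd8a and Cd8b1 were called higher and Cd2 lower, Cd3e, Cd3d and Cd3g did not pass the test, and the median of the 6 was -0.20. Without vehicle replicate 2 and AOA replicate 1, 2 of the 6 were called higher and 4 lower. Cd4 was at 63.1 to 119 CPM with vehicle and 5.65 to 12.2 CPM with AOA, and Foxp3 at 11.0 to 15.9 and 15.5 to 18.3 CPM. The 5 CD4 T cell markers summed to 443 to 891 CPM with vehicle and 139 to 193 CPM with AOA, most of it from Ctla4, which activated CD8+ T cells also express (348 to 734 and 99.7 to 155 CPM), the 5 NK cell markers to 40.3 to 212 and 10.04 to 23.9 CPM, the 4 myeloid markers found to 63.6 to 97.6 and 1.88 to 5.55 CPM (nearly all from Itgam and Itgax with vehicle, integrins that activated T cells can also express), and the 4 B cell markers found to 12.6 to 16.6 and 22.6 to 30.7 CPM. No erythroid marker had a row. The myeloid marker Cd14 was at 0 in 2 AOA libraries, and Lyz2 and the NK marker Ncr1 in 2 vehicle libraries each. The part that cell cycle genes or other cell types take in the changes below was not tested. In such bulk samples, fewer cells of a type and less RNA per cell cannot be told apart.

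Of the 7 genes, 4 rose with AOA (Mat2a, Mtap, Mtr and Ahcy) and 3 did not pass the test (Mtrr, Mat2b and Ahcyl1). None fell, also at an unadjusted p under 0.05 and in DESeq2 and limma. Without vehicle replicate 2 and AOA replicate 1, 5 were called higher and 1 lower. Over all tested genes 26.2% were called higher and 26.8% lower. The median log2 fold change was 0.56 over the 7 genes and -0.02 over all tested genes. The same 4 genes were those whose AOA libraries all lay above the vehicle libraries, and the groups of the other 3 overlapped. Over all tested genes 62.1% had groups that did not overlap, 31.0% with AOA above and 31.1% with AOA below. The highest fold changes were those of the SAM-making subunit (Mat2a) and of the enzyme that starts the salvage of methionine (Mtap).

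In GENCODE vM21 on GRCm38 the other 6 genes lie apart from Mat2a, and only Mtr and Mtrr share a chromosome. Mtap is at chr4:89137122-89181081 on the plus strand. On the minus strand are Mat2b at chr11:40679314-40695203, Ahcy at chr2:155059310-155074497, Ahcyl1 at chr3:107663118-107696560, Mtr at chr13:12182712-12258113 and Mtrr at chr13:68560780-68582149.

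**Figure D1:**
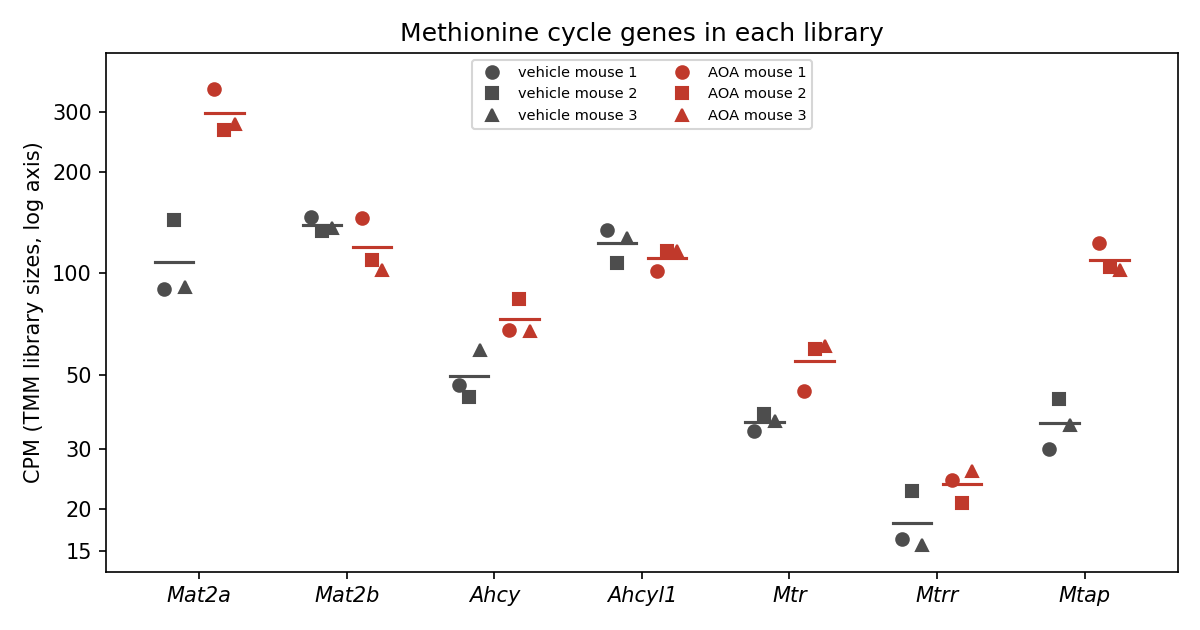
CPM of the 7 genes in each library on a log axis, with vehicle in grey, AOA in red, a marker shape for each mouse and a line at the group mean of 3. For Mat2a, Ahcy, Mtr and Mtap every AOA library lies above every vehicle library, and for Mat2b, Ahcyl1 and Mtrr the groups overlap.

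Mat2a encodes the catalytic subunit of methionine adenosyltransferase in cells outside the adult liver. Its level was 89.5, 144 and 90.9 CPM in the vehicle libraries of mice 1, 2 and 3, and 352, 267 and 277 CPM in the AOA libraries. The groups did not overlap, and the lowest AOA library was 1.86 times the highest vehicle library, which was that of mouse 2. The mean went from 108 ± 30.8 to 299 ± 46.6 CPM (SD, n = 3), a log2 fold change of 1.47 (SE 0.21, adjusted p = 0.000515 in edgeR's quasi-likelihood test, 95% interval 0.99 to 1.95). Mat2a was higher in 3 of 3 mice, by 1.97, 0.89 and 1.61 on the log2 scale. Of the 11759 tested genes, 752 had a log2 fold change at or above that of Mat2a. Across all alternatives the log2 fold change stayed between 1.33 and 1.76 and passed the threshold each time.

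The Mat2a locus is at chr6:72432799-72439558 on the minus strand of GRCm38. Its exons share 508 bases, or 11.3% of their length, with those of Particl, a noncoding gene on the opposite strand. Particl was at 14.0, 14.8 and 11.6 CPM with vehicle and at 39.1, 28.6 and 28.3 CPM with AOA, with a log2 fold change of 1.25 (adjusted p = 0.000564 in edgeR). The library kit keeps strand, but the strand setting of the counting is not stated, so it is unknown here whether reads of the shared bases were kept apart. Particl reached at most 39.1 CPM in any library, below every Mat2a value.

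Mat2b encodes the regulatory subunit that binds the Mat2a protein. It was at 147, 134 and 136 CPM with vehicle and at 146, 110 and 102 CPM with AOA. The AOA library of mouse 1 lay within the vehicle range and the other two lay below it. The mean was 139 ± 7.22 CPM with vehicle and 119 ± 23.4 CPM with AOA (SD, n = 3), with a log2 fold change of -0.22 (SE 0.16, adjusted p = 0.269 in edgeR, 95% interval -0.57 to 0.14). The difference was negative in 3 of 3 mice, and without AOA replicate 1 Mat2b was called lower (-0.39, adjusted p = 0.0199 in edgeR). With vehicle replicate 2 also left out the value was again -0.39 (adjusted p = 0.00447 in edgeR).

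The ratio of the catalytic to the regulatory subunit was taken within each library on the scale of CPM per kilobase of gene length. Mat2a to Mat2b was 0.490, 0.866 and 0.538 with vehicle and 1.94, 1.96 and 2.18 with AOA. Mat2a was thus the lower of the pair in each vehicle library and the higher in each AOA library. The log2 ratio differed by 1.73 between the groups (two-sided exact permutation test, exact p = 0.1, the smallest that 3 against 3 libraries allow, adjusted p = 0.2 over the 4 ratios compared). With each library left out in turn this difference was 1.57 to 1.98. The permutation tests of this and the other ratios exchanged libraries freely and did not use the pairing by mouse.

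Ahcy encodes S-adenosylhomocysteine hydrolase, which removes the product that inhibits methyltransferases. Its level was 46.6, 42.9 and 59.2 CPM with vehicle and 67.9, 83.9 and 67.3 CPM with AOA. The groups did not overlap, though the lowest AOA library was only 1.14 times the highest vehicle library. Ahcy went from 49.6 ± 8.52 to 73.0 ± 9.44 CPM (SD, n = 3), a log2 fold change of 0.56 (SE 0.16, adjusted p = 0.0169 in edgeR, 95% interval 0.19 to 0.92). It was higher in 3 of 3 mice, by 0.54, 0.97 and 0.19. The call was lost without vehicle replicate 1 (0.54, adjusted p = 0.0538 in edgeR) and without AOA replicate 2 (0.45, adjusted p = 0.0659 in edgeR).

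Ahcyl1, an Ahcy homologue that acts as an inositol trisphosphate receptor regulator rather than as a hydrolase, was at 134, 108 and 128 CPM with vehicle. With AOA it was at 101, 116 and 116 CPM, and the groups overlapped. The means were 123 ± 13.9 and 111 ± 8.60 CPM (SD, n = 3), with a log2 fold change of -0.15 (SE 0.14, adjusted p = 0.394 in edgeR, 95% interval -0.45 to 0.16). Ahcy to Ahcyl1, per kilobase, was 0.526, 0.605 and 0.703 with vehicle and 1.02, 1.09 and 0.879 with AOA. The groups did not overlap, and the log2 ratio differed by 0.71 (two-sided exact permutation test, p = 0.1, adjusted p = 0.2 over the 4 ratios).

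Mtr encodes methionine synthase, which moves a methyl group from methyltetrahydrofolate to homocysteine through vitamin B12. It was at 34.0, 38.3 and 36.4 CPM with vehicle and at 44.9, 59.5 and 60.9 CPM with AOA. The vehicle libraries lay close together, and each AOA library was above them. Mtr went from 36.2 ± 2.13 to 55.1 ± 8.88 CPM (SD, n = 3), a log2 fold change of 0.60 (SE 0.15, adjusted p = 0.00896 in edgeR, 95% interval 0.26 to 0.95). It was higher in 3 of 3 mice, by 0.40, 0.63 and 0.74, and passed the threshold under every alternative, at 0.53 to 0.80.

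Mtrr encodes methionine synthase reductase, which restores the B12 cofactor of Mtr when it is oxidised. Its level was 16.3, 22.6 and 15.6 CPM with vehicle and 24.3, 20.8 and 25.9 CPM with AOA. The groups overlapped because the vehicle library of mouse 2 lay above the AOA library of the same mouse. The mean was 18.1 ± 3.85 CPM with vehicle and 23.7 ± 2.62 CPM with AOA (SD, n = 3), with a log2 fold change of 0.38 (SE 0.19, adjusted p = 0.111 in edgeR, 95% interval -0.04 to 0.80). Without vehicle replicate 2 Mtrr was called higher (0.61, adjusted p = 0.00988 in edgeR), and likewise with AOA replicate 1 also left out (0.58, adjusted p = 0.00896 in edgeR). Mtr to Mtrr, per kilobase, was 2.10, 1.71 and 2.35 with vehicle and 1.86, 2.88 and 2.37 with AOA, and the ranges overlapped (log2 difference 0.20, two-sided exact permutation test, p = 0.4, also 0.4 adjusted over the 4 ratios).

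Mtap encodes methylthioadenosine phosphorylase, which starts the return to methionine of the methylthioadenosine left by polyamine synthesis. It was at 30.2, 42.4 and 35.4 CPM with vehicle and at 123, 104 and 102 CPM with AOA. The lowest AOA library was 2.41 times the highest vehicle library, the widest gap of the 7 genes. Mtap went from 36.0 ± 6.15 to 110 ± 11.3 CPM (SD, n = 3), a log2 fold change of 1.60 (SE 0.16, adjusted p = 7.6e-05 in edgeR, 95% interval 1.24 to 1.96). It was higher in 3 of 3 mice, by 2.02, 1.29 and 1.52, and ranged from 1.51 to 1.77 over the alternatives, past the threshold in each. Of the tested genes, 630 had a log2 fold change at or above that of Mtap.

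**Figure D2:**
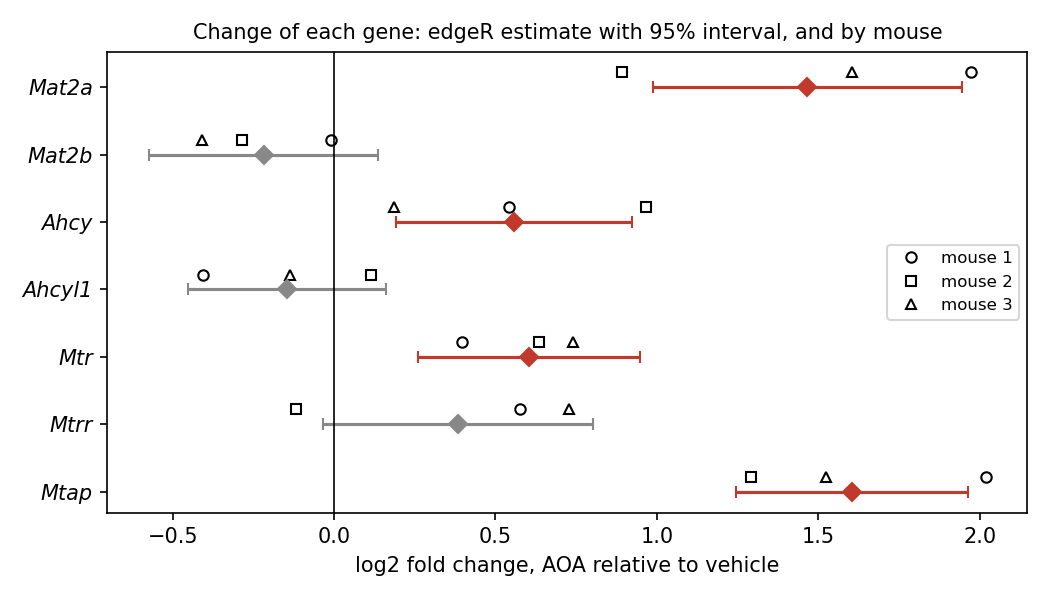
Log2 fold change of each gene, AOA relative to vehicle, with the edgeR estimate as a diamond, its 95% interval as a bar and the difference within each mouse as an open marker above it. Red marks the 4 genes past the threshold, of which Mat2a (1.47) and Mtap (1.60) lie farthest from 0, and grey the 3 whose interval includes 0.

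Compared per kilobase of gene length, the order of the levels changed between the groups. With vehicle it ran Mat2b (61.5 ± 3.20 CPM per kilobase), Mat2a (38.5 ± 11.0), Ahcyl1 (32.0 ± 3.61), Ahcy (19.5 ± 3.35), Mtap (14.1 ± 2.40), Mtr (8.08 ± 0.474) and Mtrr (4.02 ± 0.854), each as mean and SD over 3 libraries. The ranges of Mat2a and Ahcyl1 overlapped, and those of the other neighbours in the order did not. With AOA the order ran Mat2a (106 ± 16.6 CPM per kilobase), Mat2b (52.9 ± 10.4), Mtap (42.8 ± 4.41), Ahcyl1 (28.9 ± 2.23), Ahcy (28.7 ± 3.71), Mtr (12.3 ± 1.98) and Mtrr (5.25 ± 0.580). The ranges of Mat2b and Mtap overlapped, as did those of Ahcyl1 and Ahcy. Mat2a to Ahcy was 1.74, 3.03 and 1.39 with vehicle and 4.70, 2.88 and 3.73 with AOA, so that mouse 2 had its higher ratio with vehicle (log2 difference 0.93, two-sided exact permutation test, p = 0.2, adjusted p = 0.267).

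**Figure D3:**
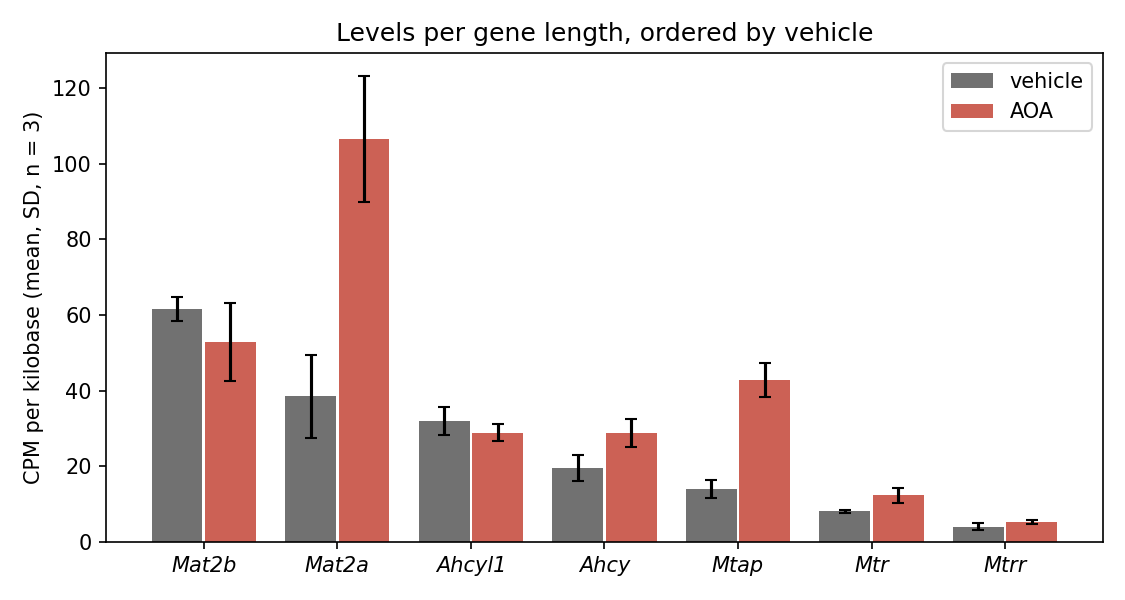
CPM per kilobase of gene length for the 7 genes, ordered by the vehicle mean, with bars at the mean of 3 libraries and error bars of 1 SD. Mat2b is the highest with vehicle (61.5) and Mat2a with AOA (106), and Mtap moves from the fifth place to the third.

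**Figure D4:**
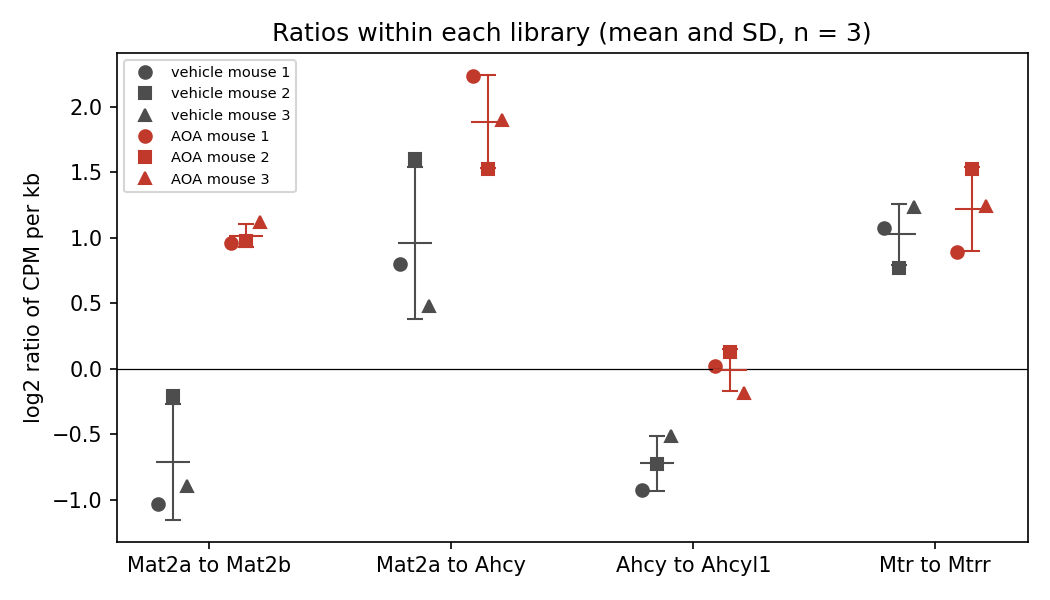
Log2 ratio of the CPM per kilobase of paired genes within each library, with vehicle in grey, AOA in red, a marker shape for each mouse, and the mean and SD of 3. Mat2a to Mat2b lies below 0 in each vehicle library and above 0 in each AOA library, and the Mtr to Mtrr ratios of the groups overlap.

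The genes whose pattern over the 6 libraries lay closest to that of Mat2a, by Euclidean distance of centred log2 CPM among 8762 genes of at least 10 CPM, were Cct3, Katnbl1 and Eif4e. Cct3, a subunit of the chaperonin that folds tubulin and actin, was at a distance of 0.135 and had a log2 fold change of 1.51. Katnbl1 was at 0.176 with a log2 fold change of 1.46, and Eif4e, the cap-binding translation factor, at 0.185 with 1.54. In this list 1065 genes lay within a distance of 1, so the likeness is shared by many genes.

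Promoter windows from RefSeq (GRCm38.p6), reaching from 250 bases before to 50 bases after each start, matched all 7 genes. They were searched on both strands for the letters CACGTG (E-box), TGATGNAA (core of the ATF4 element), TATAAA and CCAAT, the last pair added after the counts had been seen. CACGTG stood in 7.15% of the 32851 windows and TGATGNAA in 3.97%, and no window of the 7 genes held either. TATAAA stood in 13.6% of all windows and CCAAT in 37.4%. Counted per tested gene, within the genes called higher, called lower and not called, the shares were 10.8 to 13.7% for the E-box, 2.27 to 3.12% for the ATF4 core, 7.05 to 8.83% for the TATA letters and 41.2 to 46% for the CCAAT letters. CCAAT was found for Mat2a, Mat2b, Ahcy, Mtr, Mtrr and Mtap and not for Ahcyl1. Mat2a had TATAAA at -32 from its start on its own strand, and an Ahcyl1 window had it at -241 on the other strand. The 250 bases before the RefSeq start are shown for Mat2a and Mtap, the 2 genes that changed most. TATAAA and CCAAT or its reverse complement are in capitals. The Mtap stretch begins at 89137120 and the GENCODE locus given above at 89137122, so nearly all of this stretch lies within that locus.
Mat2a, chr6:72439557-72439806, minus strand: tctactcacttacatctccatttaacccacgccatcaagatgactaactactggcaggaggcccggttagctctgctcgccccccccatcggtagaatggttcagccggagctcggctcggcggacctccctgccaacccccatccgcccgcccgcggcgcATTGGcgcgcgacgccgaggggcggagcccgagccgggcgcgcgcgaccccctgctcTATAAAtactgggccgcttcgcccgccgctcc
Mtap, chr4:89137120-89137369, plus strand: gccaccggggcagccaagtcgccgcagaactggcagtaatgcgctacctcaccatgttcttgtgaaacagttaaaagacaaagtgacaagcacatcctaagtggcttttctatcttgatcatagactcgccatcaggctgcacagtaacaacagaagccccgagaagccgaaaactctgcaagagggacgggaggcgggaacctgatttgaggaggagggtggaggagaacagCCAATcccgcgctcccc
These windows held 29 CpG for Mat2a and 11 for Mtap. A match gives the letters only, and factor binding was not measured.

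Most of the other enzymes around SAM and adenosine also rose. Of 6 tested genes, 5 were higher (Ada, Mettl16, Adk, Pnp and Ahcyl2), none was lower at an adjusted or unadjusted p under 0.05 or in DESeq2, and the list's median log2 fold change was 1.11, beside -0.02 over all tested genes. Called genes made up 83.3% of the list, beside 53.0% of all tested genes. Mettl16, whose protein is known to bind hairpins of Mat2a mRNA, was at 13.7, 24.3 and 17.5 CPM with vehicle and at 42.8, 53.0 and 51.0 CPM with AOA. Its groups did not overlap, and its log2 fold change was 1.40 (SE 0.21, adjusted p = 0.000611 in edgeR). Ada, which deaminates adenosine, had a log2 fold change of 1.62 (adjusted p = 0.000203 in edgeR), and Adk, which phosphorylates it, of 1.20 (adjusted p = 0.000348 in edgeR). Ahcyl2, the other Ahcy homologue, was at 59.7, 71.7 and 66.2 CPM with vehicle and at 71.7, 121 and 101 CPM with AOA, where the lowest AOA library equalled the highest vehicle library to 3 digits (log2 fold change 0.57, adjusted p = 0.0299 in edgeR). Its call was lost when any of 4 libraries was left out, and without vehicle replicate 2 and AOA replicate 1 all 6 genes of the list were called higher.

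Downstream of Mtap and in polyamine synthesis, which makes its substrate, 4 of 7 tested genes were higher, 1 was lower, and the median was 0.70. The share called was 71.4%, beside 53.0% of all tested genes. Srm, spermidine synthase, was at 9.92, 31.9 and 11.3 CPM with vehicle and at 98.7, 110 and 96.6 CPM with AOA. The groups lay far apart, with vehicle replicate 2 highest in its group, and the log2 fold change was 2.52 (SE 0.39, adjusted p = 0.000717 in edgeR). Without vehicle replicate 2 and AOA replicate 1 the log2 fold change of Srm was 3.30 (adjusted p = 1.9e-06 in edgeR). Amd2 (2.08, adjusted p = 0.000433 in edgeR) is a near copy of Amd1, so its reads are uncertain. In the steps that carry the Mtap product back to methionine, Enoph1 was higher (1.16, adjusted p = 0.00073 in edgeR), as was Apip (0.70, adjusted p = 0.0416 in edgeR, a call lost in 9 of 16 alternatives). Mri1, which follows Mtap directly, was lower at 53.5, 39.2 and 49.1 CPM with vehicle and 37.3, 33.4 and 32.6 CPM with AOA (-0.45, adjusted p = 0.0314 in edgeR, a call lost when any of 4 libraries was left out).

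Several genes that supply vitamin B12 to Mtr were lower with AOA. Of 9 tested genes of methionine regeneration and cobalamin supply, 4 were lower, among them Tcn2, Abcd4 and Lmbrd1, 1 was higher (Mmachc), and the median was -0.51. Without vehicle replicate 2 and AOA replicate 1, 2 were higher and 4 lower. In the main fit 55.6% of this list and 76.9% of the folate list below were called, beside 53.0% of all tested genes. Tcn2, the carrier of B12 into cells, was at 45.3, 38.4 and 48.0 CPM with vehicle and at 8.0, 8.56 and 9.08 CPM with AOA, a log2 fold change of -2.36 (SE 0.16, adjusted p = 1.4e-05 in edgeR). Every AOA library lay below every vehicle library. Abcd4, which exports B12 from lysosomes, had a log2 fold change of -1.02 (adjusted p = 0.00101 in edgeR). Among 13 folate one-carbon enzymes, by contrast, 10 were higher and none lower at an adjusted or unadjusted p under 0.05 or in DESeq2, with a median of 1.35 (1 was lower without vehicle replicate 2 and AOA replicate 1). Among those higher were Tyms (3.26) and Mthfd1 (2.44, or 3.27 without those libraries, with vehicle replicate 2 the highest of its group), and Tyms is also one of the S phase markers given above.

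For the genes that use what the cycle makes, the counts were mixed. Of 41 SAM-dependent methyltransferases, 18 were higher and 7 lower, with a median of 0.38. Called in either direction were 61% of them, beside 53.0% of all tested genes (26.2% higher and 26.8% lower). Dnmt1, the maintenance DNA methyltransferase, was at 171, 200 and 171 CPM with vehicle and at 416, 685 and 723 CPM with AOA (log2 fold change 1.75, adjusted p = 0.000238 in edgeR). The histone H3 lysine methyltransferases Suv39h1 (1.79) and Suv39h2 (2.00) were higher, as was Ezh2 (1.56), and Ezh1, the paralogue of Ezh2 (-1.46), Kmt2a (-1.43) and Kmt2d (-1.09) were lower. In a fit with gene length offsets and the mouse block, Kmt2d was at -0.62 and still called. Of 11 genes of glutathione synthesis and turnover, 5 were higher and 1 lower (54.5% called, near the share of all tested genes), with a median of 0.55. Both subunits of the enzyme that commits cysteine to glutathione were among those higher, Gclc at 0.60 (adjusted p = 0.00488 in edgeR) and Gclm at 0.73 (adjusted p = 0.00844 in edgeR). Lap3, a peptidase (1.04), Chac2 (0.87) and Gsr, glutathione reductase (0.55), were also higher, and Ggt7 was lower (-1.08), of which Chac2, Gsr and Ggt7 lost their calls in 6, 3 and 3 alternatives.

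Cysteine breakdown and sulfide oxidation had 2 of 9 tested genes higher and 3 lower, with a median of -0.04. This is 55.6% called, near the 53.0% of all tested genes. Kyat3 (1.17) and Sqor (1.16) were higher, and Mpst (-0.99), Suox (-0.59, or -0.37 without vehicle replicate 2 and AOA replicate 1) and Kyat1 (-1.27) were lower. For the carriers of methionine and cystine, 9 of 11 listed genes were tested, and Slc7a11, the cystine-glutamate exchanger, is not analysed here. Of the 9, 0 were higher and 1 lower in edgeR (11.1% called), and the median was -0.31. These counts were the same at an unadjusted p under 0.05 and in DESeq2 and limma. The one lower was Slc1a5, a glutamine and neutral amino acid carrier (-0.39, adjusted p = 0.0412 in edgeR), and its call was lost in 10 of 16 alternatives, among them the mouse block (-0.39, adjusted p = 0.065 in edgeR). Slc7a5, the large neutral amino acid transporter that brings methionine into T cells, was at 57.8, 182 and 54.8 CPM with vehicle and at 128, 216 and 199 CPM with AOA. The vehicle library of mouse 2 lay within the AOA range, and the change did not pass the test (0.88, adjusted p = 0.114 in edgeR). With the mouse as a replicate block Slc7a5 was called higher (1.08, adjusted p = 0.00853 in edgeR), as it was without vehicle replicate 2 and AOA replicate 1 (1.91, adjusted p = 3.19e-06 in edgeR), where 3 transporters were called higher.

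Of 10 tested markers of the ATF4 response to amino acid shortage, 2 were higher and 4 lower, with a median of -0.43. This is 60% called, beside 53.0% of all tested genes. The number higher was 3 with the mouse as a replicate block and 4 without vehicle replicate 2 and AOA replicate 1, with 4 lower in each. Psat1 (1.93) and Phgdh (1.22), which make serine, were higher, and Ddit3 (-2.31), Trib3 (-1.09) and Ddit4 were lower.

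**Figure D5:**
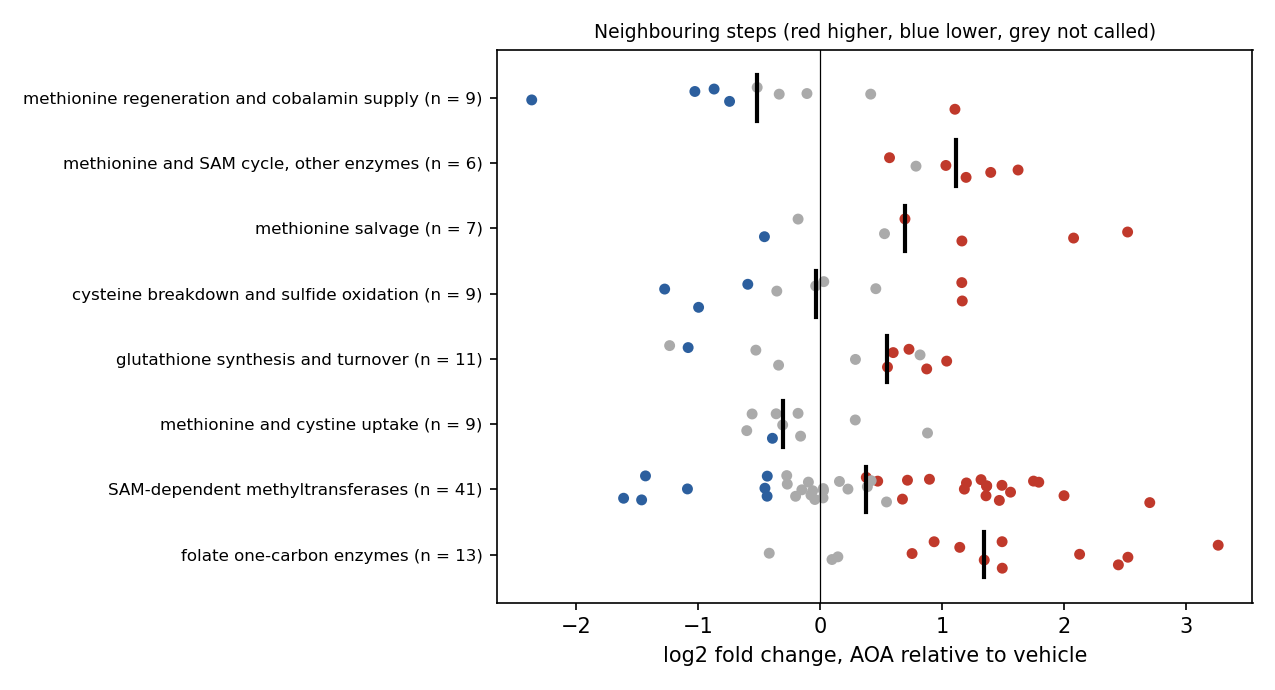
Log2 fold change, AOA relative to vehicle, of the tested genes in 8 lists of neighbouring steps, with a point for each gene, red for called higher, blue for called lower, grey for not called, and a bar at the list's median (height within a row has no meaning). The medians run from -0.51 for methionine regeneration and cobalamin supply to 1.35 for folate one-carbon enzymes.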

How the data were processed

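RNA of 3 vehicle and 3 AOA cultures was sequenced (stranded mRNA libraries, paired ends). The authors aligned reads with STAR, using its defaults, and the deposited values are raw counts per gene from uniquely mapped reads, listed with symbol, Entrez number and length. The submitters' processing notes also name bcl2fastq, featureCounts, DESeq2 and the build mm10; their versions, the annotation and the strand setting are not stated. Counts were tested in R 4.3.3 with edgeR 4.0.16: filterByExpr with a minimum count of 10, TMM, robust quasi-likelihood test, Benjamini-Hochberg adjustment, threshold 0.05. Log2 CPM had a prior count of 2. The single row without a symbol stayed in the counts that were fitted and is not named here. DESeq2 1.42.0, limma 3.58.1 (voom), other normalizations and filters, gene length offsets, a mouse block and the loss of each library were alternatives.

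The labels number the mouse donors alike in both groups, and deviations from the group means correlated within each mouse (r of 0.0868, 0.189 and 0.194 across genes, which are not independent replicates). The members and lists were chosen with earlier results of these data known. From each list the text names up to 3 called genes per direction with the largest change, a mean of 10 CPM or more in either group and one direction in 3 of 3 mice, plus genes that share a reaction with a member; some genes that meet this rule are not reported here. Pnp, Ahcyl2, Apip, Lmbrd1, Mmachc, Sqor, Kyat1, Chac2, Gsr, Ggt7, Ezh2, Slc7a5 and Particl were named after their values were seen. Library totals set the counting precision, and the lowest count of any member was 205, for Mtrr.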

Additional observations from a re-analysis of the deposited data

How the results depend on the processing

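Mat2a, Mtap and Mtr kept their direction and call under all 16 alternatives. With the mouse as a replicate block Mat2a was at 1.49, no call of the 7 genes changed, Slc1a5 lost its call and Slc7a5 gained one, and 6292 genes were called, 6007 of them shared with the fit without it. The block also moved the number called higher to 6 for the other SAM cycle enzymes and 5 for methionine salvage. For glutathione it became 6 and for methyltransferases 17. Ahcy was at 0.54 and 0.45 and no longer called without vehicle replicate 1 and AOA replicate 2. With each library left out in turn, 0 to 1 of the 7 genes were called lower, the 1 being Mat2b without AOA replicate 1, and Mtrr was called higher without vehicle replicate 2. In these fits Mat2b was at -0.39 to -0.12, Ahcy at 0.45 to 0.73, Mtrr at 0.31 to 0.61 and the methyltransferase median at 0.23 (without AOA replicate 1) to 0.46. The median of methionine salvage was 0.40 without AOA replicate 1. That of cysteine breakdown ran from -0.14 to 0.087 and that of uptake from -0.44 to -0.13. With vehicle replicate 2 and AOA replicate 1 both left out, a choice made after seeing the data, 1 gene was called lower (Mat2b, -0.39), Mtrr was at 0.58, and the medians of the uptake and folate lists were -0.027 and 1.61. At least 10 CPM in 3 libraries moved the medians of methionine regeneration to -0.84, of methyltransferases to 0.20 and of B cell markers to 0.98, from -0.16. The cause of these shifts was not tested.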
